A study of Mus musculus with 16 samples.

Results

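Liver tumors of mice on a ketogenic diet (KD) were compared with liver tumors of mice on a normal diet (ND) by RNA-seq. The 8 tumor samples, KD tumor 1 to 4 and ND tumor 1 to 4, were chosen by their labels from the 16 samples of the study. Of the 20601 genes in the expression table, 13432 reached at least 1 TPM (transcripts per 1e6, a unit normalized for gene length and depth) in at least 4 of the 16 samples, and these were compared. All mice of both groups had received 19 µg of a plasmid for human N-Ras, 1 µg of a plasmid for human c-Myc and 2 µg of a plasmid for the Sleeping Beauty transposase. Delivery was hydrodynamic, meaning a rapid large-volume injection that takes plasmid into hepatocytes, where the transposase inserts the oncogenes into DNA. The tumors therefore arise from hepatocytes that took up plasmid. From week 4 after delivery the KD mice ate a diet of 89.5% fat, 10.4% protein and 0.1% carbohydrate for 4 weeks, while the ND mice ate the normal diet. Tissue was taken at week 8 from 8 mice, and the other 8 samples are nontumor liver from the same mice in the same 2 diet groups. The strain, sex, age, promoters and the make-up of the normal diet were not given in the sources used here, nor was whether a sample pooled several nodules. Nothing in the labels ties a tumor number to a mouse, so the p-values rest on the spread among these samples, whatever its source.

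When carbohydrate is scarce, fatty acids reach the liver and are broken down in mitochondria and peroxisomes, and acetyl-CoA is turned into ketone bodies that other organs burn. The nuclear receptor PPAR alpha, which binds fatty acids, switches on many genes of this program in hepatocytes. Liver tumors often lose parts of the hepatocyte program, including the division of labor between hepatocytes near the portal tract (periportal) and near the central vein (pericentral).

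Values are TPM divided by a scaling factor for each sample, called rescaled TPM, and are given in the order of samples 1 to 4. Differences are KD minus ND on the log2(rescaled TPM + 1) scale with their standard error (SE), which understates the change of genes at low levels. A gene was called when its limma p-value, adjusted by the Benjamini-Hochberg method over all 13432 genes, was under 0.05, and "rose" and "fell" are used only of called genes. The reads behind the listed genes numbered, in units of 1e6 reads, 8.762 to 13.914 in the KD tumors and 6.759 to 9.647 in the ND tumors. Listed genes held 77.1% to 79.9% of the TPM total in KD tumors and 49.96% to 66.5% in ND tumors, without overlap. The scaling factors did overlap, at 0.986 to 1.169 in KD tumors and 0.932 to 1.374 in ND tumors. The hepatocyte marker Alb (albumin) was abundant in all 8 tumors, at 81820, 64090, 65270 and 65630 on KD and at 24220, 49710, 29130 and 32530 on ND. The fetal liver and liver cancer marker Gpc3 averaged 26.8 ± 13.9 in KD tumors and 26.5 ± 15.5 in ND tumors (SD, n = 4), against 1.65 and 1.35 in nontumor liver on KD and ND. Bulk RNA cannot separate fewer cells of a type from less RNA per cell, which holds for every result here.

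Of the 13432 genes, 2126 (15.8%) were called between the diets in tumors, 961 (7.15%) higher on KD and 1165 (8.67%) lower. The 4 KD and 4 ND values did not overlap for 3078 genes (22.9%), of which 1827 were also called. A difference of at least 1 log2 unit was found for 861 called genes, 418 higher and 443 lower. On the first principal component of the 8 tumors, which held 41% of the variance, the KD tumors lay between -48.2 and -18.4 and the ND tumors between 19.3 and 48.2. The count depended on single samples: it was 1410, 1060 and 1114 without KD tumor 2, 3 and 4 and 1163 without ND tumor 1. It also depended on the scale. ND nontumor 4, whose scaling factor was 0.128 against 0.932 to 1.374 in the tumors, enters this contrast through the shared spread, the scaling factors and the choice of tested genes. With it left out of the factors and the fit, and the tested genes kept, 2165 genes were called, and with factors from each tissue alone 2210. Without rescaling 113 genes were called, 39 higher and 74 lower, and with the listed genes of each sample set to a common sum 2886 were called, 274 higher and 2612 lower. Without rescaling none of the gene lists described below had more than 2 members that rose or 3 that fell. That fit kept ND nontumor 4 at its deposited scale, and the part of this sample in the lower counts was not tested. The common sum moved the median of all tested genes from 0.03 to -0.33, so directions are given relative to the rescaled median, and a list median printed here that changed sign under it is marked. The medians of the periportal, DNA replication, MHC class II and dendritic cell, and stellate cell lists, which are given by counts, also turned from positive to negative under it. Of the genes named by rule and given with values here, those that passed also without rescaling were Cyp4a14, Cyp2e1, Rgn, Igfbp2, Clec4g, Dnase1l3, Gstm3, Cbr3, Gstp2, Gstm1, Sox9, Cd34, Apln, Cav1, Jag2, Sema7a, Map3k6, Mroh3, Glt1d1, Ndrg1, Cyp2c38, Snord49a, Ebf1 and Car1. Under the common sum the calls of Hadhb, Etfdh, Plin5, Pnpla3, Sc5d, Slc2a2, Gpt2, Cs, Sdhd, Dlat, Clec4f, S100a4 and Ccnd1 were lost.

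**Figure D1:**
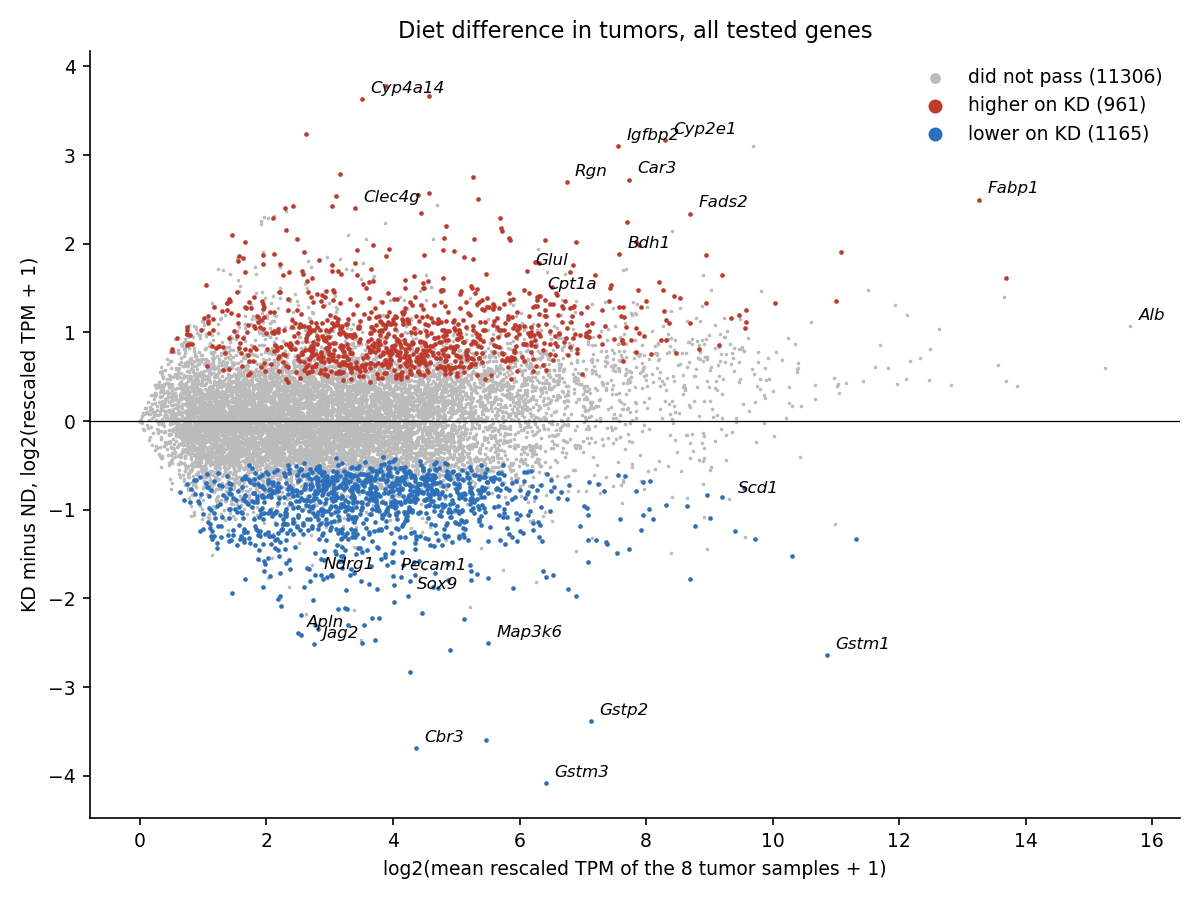
Each point is 1 of the 13432 tested genes, with the log2 mean level in the 8 tumors on the x axis and the KD minus ND difference on the log2(rescaled TPM + 1) scale on the y axis. The 961 genes higher on KD and the 1165 lower on KD are colored, and 23 genes are named, from Cyp4a14 at the top to Gstm3 at the bottom.

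Genes of fatty acid breakdown rose together in the tumors of KD mice, and none of them fell. In the list of mitochondrial fat oxidation 15 of 22 tested members rose, with a median difference of 0.92, beside 0.03 over all tested genes. The list of peroxisomal and omega oxidation had 10 of 23 members that rose and a median of 0.86. Of 10 ketone body genes 5 rose, with a median of 0.87. Among 23 other PPAR alpha targets 7 rose, with a median of 0.67. These medians stayed positive under every alternative tried, but the counts did not hold. Without rescaling 0 members of the mitochondrial list, 1 of the peroxisomal list and 0 of the ketone and other target lists rose. Under the common sum 5 mitochondrial, 7 peroxisomal, 4 ketone and 5 other target genes rose. Without KD tumor 3 and ND tumor 3 the 4 counts were 3, 5, 1 and 0.

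The gatekeeper of mitochondrial fat entry is Cpt1a (chr19:3322334-3385733, GRCm38, as are all positions here), which links long-chain fatty acids to carnitine. Its level was 83.9, 96.2, 124 and 155 in the KD tumors and 39.4, 42.1, 45.7 and 38 in the ND tumors. All KD tumors lay above all ND tumors, and the difference was 1.42 (SE 0.21, adjusted p = 0.00123). Acads, the dehydrogenase for short-chain acyl-CoA, stood at 46, 65.8, 96.1 and 66 on KD and 36.6, 31.5, 26.3 and 23.6 on ND, a difference of 1.16 (SE 0.20, adjusted p = 0.00226). For Hadhb, the thiolase subunit of the mitochondrial trifunctional protein, the KD values were 16.2, 19.8, 30.5 and 33.2 and the ND values 7.19, 10.9, 10.6 and 15.1. Hadhb differed by 1.10 (SE 0.23, adjusted p = 0.00695), again without overlap. Etfdh, which hands electrons from fat oxidation to the respiratory chain, rose by 1.07 (SE 0.20, adjusted p = 0.00368), from 5.99 ± 1.11 to 14.1 ± 4.54 (SD, n = 4). Leaving out KD tumor 3 or KD tumor 4 lowered the count of the mitochondrial list from 15 to 9 each, and leaving out KD tumor 3 with ND tumor 3 lowered it to 3.

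In the peroxisomal and omega oxidation list the highest differences were in the Cyp4a family, enzymes that oxidize the far end of fatty acids and are classical PPAR alpha targets. Cyp4a14 (chr4:115486200-115496142) stood at 5.95, 11.1, 8.61 and 56.5 in the KD tumors and at 0, 0.38, 0 and 0.418 in the ND tumors. KD tumor 4 was far above the other KD tumors, and the groups did not overlap (difference 3.63, SE 0.65, adjusted p = 0.00307). Its neighbor Cyp4a10 stood at 18.6, 24.3, 17.1 and 83.5 on KD and 3.53, 3.38, 4.6 and 4.77 on ND, a difference of 2.55 (SE 0.57, adjusted p = 0.00955). Members of this family are alike in sequence, and how reads shared between them were counted is not given. Aldh3a2, which oxidizes fatty aldehydes, was 47.3, 87, 53.4 and 59.1 on KD and 17.8, 15.4, 14.7 and 8.73 on ND, a difference of 2.05 (SE 0.28, adjusted p = 0.000761). Crot, which exports shortened acyl groups from peroxisomes as carnitine esters, rose by 1.45 (SE 0.26, adjusted p = 0.00274), and the peroxisomal isomerase Ech1 rose by 1.65 (SE 0.36, adjusted p = 0.00818). Without KD tumor 4 or without ND tumor 1 the list had 6 members that rose.

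Ketone bodies are made in hepatocyte mitochondria from acetyl-CoA. Bdh1 (chr16:31422280-31458901), which interconverts acetoacetate and 3-hydroxybutyrate, was at 227, 268, 410.1 and 293 on KD and 80.5, 107, 75.5 and 59 on ND. Its difference of 1.88 (SE 0.31, adjusted p = 0.0021) had no overlap between the groups. Acat1, the thiolase of the first step, rose from 57.1 ± 7.9 to 147 ± 55.1 (SD, n = 4), by 1.28 (SE 0.32, adjusted p = 0.0151). The monocarboxylate carrier Slc16a7, which can carry ketone bodies across membranes, rose by 1.05 (SE 0.24, adjusted p = 0.0113). Oxct1, the enzyme that lets extrahepatic cells burn ketone bodies, was low in both groups, at 1.75, 3.33, 1.89 and 2.04 on KD and 3.16, 2.73, 1.26 and 2.57 on ND. The Oxct1 groups overlapped (difference -0.07, SE 0.23, adjusted p = 0.874). Without KD tumor 3 the ketone list had 3 members that rose, and Acat1 was not called. With ND tumor 3 left out as well Bdh1 was the 1 member that rose.

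Fabp1, the liver fatty acid binding protein and a PPAR alpha target, showed the largest change of the other targets. Its promoter is shown because it was the only one among the promoters of the 4 lists above that held the PPAR type element searched. That element was AGGNCA, any 1 base, then AGGNCA again, sought on both strands in the 250 bases before each start in RefSeq's table (GRCm38.p6). It was present in 111 of 32851 promoters (0.338%), in 0 of 20 of mitochondrial fat oxidation genes, 0 of 13 of peroxisomal and omega oxidation, 0 of 5 of ketone body genes and 1 of 20 other PPAR alpha targets. The stretch below covers bases -172 to -53 relative to the RefSeq start, at chr6:71199707-71199826 on the plus strand, and capitals mark the match, which reads as the element on the opposite strand.
Fabp1: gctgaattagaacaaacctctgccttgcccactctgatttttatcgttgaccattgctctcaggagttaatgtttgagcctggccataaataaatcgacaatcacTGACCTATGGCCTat
A match of letters is a description and does not show binding in these tumors.

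Fabp1 itself (chr6:71199827-71205023) stood at 14610, 14760, 20370 and 16180 in the KD tumors and at 2353, 4603, 1563 and 4131 in the ND tumors. Every KD tumor was above every ND tumor, with a difference of 2.50 (SE 0.59, adjusted p = 0.0121). Plin2, a coat protein of lipid droplets, was at 193, 269, 246 and 178 on KD and 119.5, 103, 96.5 and 95.5 on ND, a difference of 1.07 (SE 0.27, adjusted p = 0.0157). Fitm2, which helps to form lipid droplets, rose by 1.23 (SE 0.29, adjusted p = 0.0127), and Plin5, which ties droplets to mitochondria, rose by 0.97 (SE 0.23, adjusted p = 0.0131) although its groups overlapped. Of 30 tested genes of lipid droplets and fatty acid uptake 9 rose and 2 fell, with a median of 0.54. The members that fell were both lipases. Lipe, the hormone-sensitive lipase, was at 6.22, 4.45, 5.69 and 3.32 on KD and 20.3, 9.21, 15.5 and 8.13 on ND (difference -1.21, SE 0.25, adjusted p = 0.00618). Lpl, the lipoprotein lipase, averaged 37.2 ± 12.6 on KD and 89.7 ± 30.9 on ND (SD, n = 4) and differed by -1.24 (SE 0.40, adjusted p = 0.0466), and it is named here after its values were seen. The PPAR alpha targets Pdk4 and Fgf21 did not pass. Pdk4, which shuts pyruvate out of oxidation, differed by 0.37 (adjusted p = 0.535), and Fgf21, a fasting hormone, by 0.32 (adjusted p = 0.431). Ppara itself was at 10.1 ± 2.84 on KD and 7.93 ± 1.21 on ND (SD, n = 4), with overlapping groups and an adjusted p of 0.531. Without KD tumor 3 the other PPAR alpha targets had 4 members that rose and the lipid droplet list had 6 that rose and 1 that fell. With ND tumor 3 left out as well neither list had a member that rose, so the calls of Fabp1, Plin2, Plin5 and Fitm2 were lost, that of Fabp1 also without the filter on low values.

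**Figure D2:**
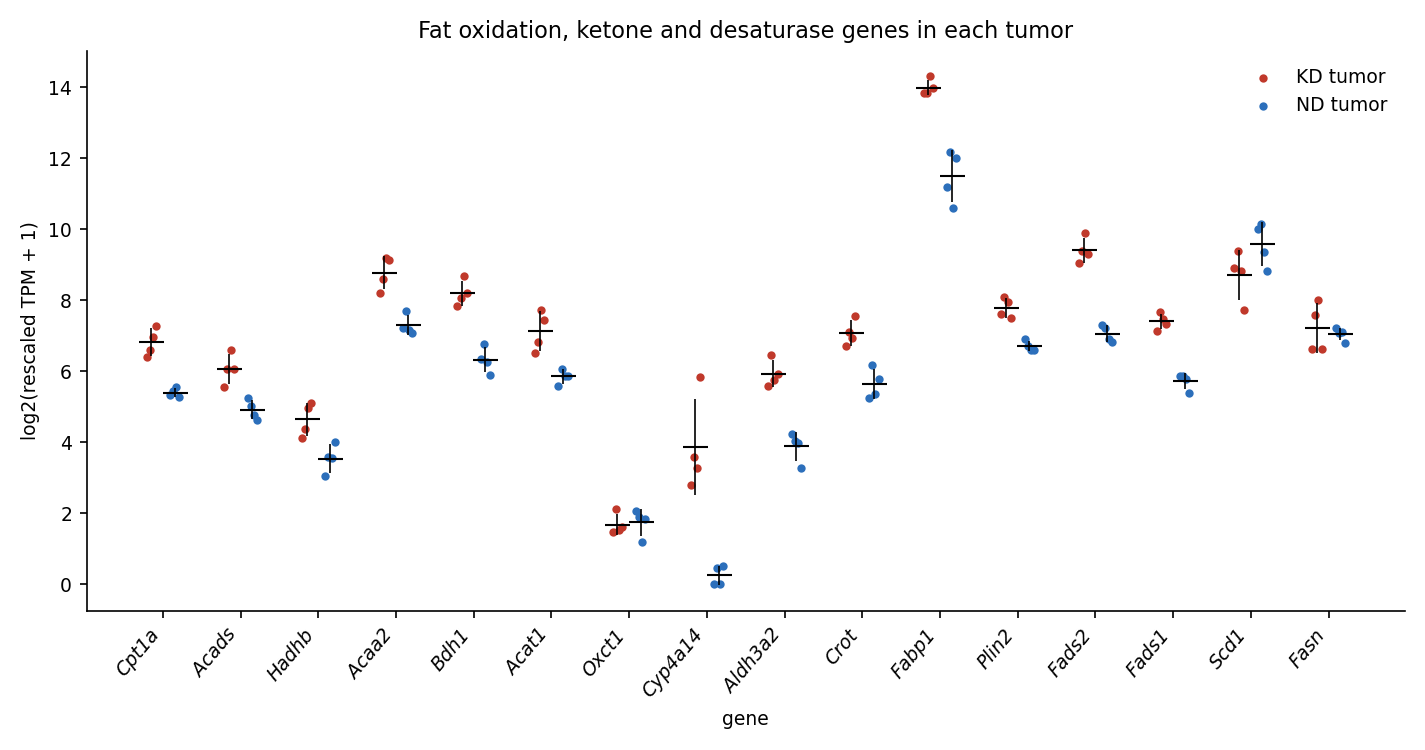
Points give log2(rescaled TPM + 1) of 16 genes of fat oxidation, ketone synthesis, lipid storage and fatty acid synthesis in the 4 KD and 4 ND tumors. The groups are apart for Cpt1a, Bdh1, Fabp1, Fads2 and Fads1, and mixed for Oxct1, Scd1 and Fasn.

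Within fatty acid synthesis the desaturation and elongation steps for polyunsaturated fat rose, while the main synthesis genes did not pass. Of 23 tested members 4 rose and none fell, with a median of 0.26 that turned to -0.20 under a common sum. Fads2 (chr19:10062765-10101746), the delta-6 desaturase, was at 525, 667, 949.8 and 627 on KD and 156, 149, 119 and 112 on ND. That difference, 2.34 (SE 0.27, adjusted p = 0.000339), had no overlap. Its genomic neighbor Fads1, the delta-5 desaturase, was at 140.5, 201, 176 and 160.1 on KD and 56.9, 57.5, 53.4 and 40.7 on ND (difference 1.68, SE 0.25, adjusted p = 0.00113). Elovl5, the elongase of the same pathway, rose by 1.48 (SE 0.33, adjusted p = 0.0087), from 120.2 ± 18.8 to 345 ± 110.5 (SD, n = 4). Pnpla3, a lipid droplet hydrolase, rose by 1.59 (SE 0.45, adjusted p = 0.0277) with overlapping groups, and lost its call without KD tumor 2, KD tumor 3, ND tumor 2 or ND tumor 3. Fasn, the fatty acid synthase, was at 98.3, 192, 257 and 97.6 on KD and 147, 134, 137 and 110.4 on ND, and these groups overlapped (adjusted p = 0.796). Srebf1, the regulator of the pathway, differed by 0.22 (adjusted p = 0.722). Scd1, the delta-9 desaturase that makes oleate, was at 479, 669, 453 and 208 on KD and 1036, 1143, 652 and 454 on ND, a difference of -0.88 (SE 0.39, adjusted p = 0.127) with overlapping groups. In nontumor liver Scd1 averaged 51.4 on KD and 975 on ND (difference -4.34, adjusted p = 6.26e-05), and the difference between the tissues in the diet effect was 3.46 (SE 0.55, adjusted p = 0.0175).

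Of 26 genes of cholesterol synthesis and uptake 7 rose in KD tumors and none fell, with a median of 0.46. Hsd17b7, a sterol reductase of the pathway, was at 11.8, 15.9, 10.9 and 7.14 on KD and 1.87, 4.15, 4.33 and 1.46 on ND, a difference of 1.69 (SE 0.42, adjusted p = 0.0154) without overlap. Sc5d, a late desaturase of the same pathway, was at 164, 177, 135 and 126 on KD and 90.6, 114, 77.1 and 65.2 on ND (difference 0.81, SE 0.24, adjusted p = 0.0315). The Sc5d groups were apart, but its call was lost without rescaling, under the common sum, after length and GC adjustment, and without KD tumor 1, 2 or 3, ND tumor 1, 3 or 4, or both tumors numbered 3. Without KD tumor 1, KD tumor 2, ND tumor 1 or ND tumor 4 the list had 3 members that rose, and without KD tumor 3 or ND tumor 3 it had 4.

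Bile acid genes showed 5 of 21 that rose and 1 that fell, with a median of 0.62. Cyp7a1 (chr4:6265612-6275633), whose enzyme controls how fast cholesterol becomes bile acid, was at 1.52, 1.12, 1.55 and 4.36 in KD tumors. In ND tumors it was listed at 0 in 3 samples and at 0.0326 in ND tumor 4, so no fold is given (adjusted p = 0.00185). Slc10a1, the main bile acid importer of hepatocytes, was at 31.9, 47.8, 111 and 186 on KD and 16.4, 19.1, 12.8 and 21.6 on ND. KD tumors 3 and 4 were the highest, and the difference was 2.07 (SE 0.40, adjusted p = 0.00444). Akr1c6 rose by 1.79 (SE 0.37, adjusted p = 0.00592), with its lowest KD tumor at 63.9 just above its highest ND tumor at 63.5. The basolateral exporter Abcc3 was the member that fell, by 0.77 (SE 0.19, adjusted p = 0.013), with overlapping groups. Without KD tumor 4 the list had 3 members that rose and its median was 0.22.

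Of 21 lipoprotein genes 5 rose and none fell, with a median of 0.59. Apoa5 (chr9:46268633-46271919), an apolipoprotein that lowers plasma triglyceride, was at 216, 251, 485 and 530.1 on KD and 61.2, 108, 72.9 and 104 on ND. Apoa5 differed by 2.02 (SE 0.28, adjusted p = 0.000833), without overlap. Mttp, which loads lipid onto apolipoprotein B, was at 65.6, 68.5, 63.4 and 77 on KD and 27.2, 46.9, 27.8 and 33.9 on ND (difference 1.03, SE 0.27, adjusted p = 0.0203). The Mttp call was lost without KD tumor 4, ND tumor 1 or ND tumor 3. Without KD tumor 4, ND tumor 1 or ND tumor 3 the list had 1 member that rose, and without KD tumor 1, 2 or 3 or ND tumor 4 it had 2.

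Sugar metabolism moved in both directions. Of 28 genes of glycolysis and fructose use 3 rose and 6 fell, with a median of -0.21. Ldha, which turns pyruvate into lactate, was at 332, 588, 519 and 336 on KD and 134, 129, 149.7 and 166 on ND. Ldha values did not overlap and differed by 1.57 (SE 0.29, adjusted p = 0.00341). The phosphofructokinase subunits, which control entry into glycolysis, went the other way. Pfkp was at 1.33, 1.99, 2.31 and 0.853 on KD and 3.66, 4.03, 4.32 and 13.1 on ND (difference -1.34, SE 0.29, adjusted p = 0.00805). Pfkl was at 8.79, 8.54, 9.83 and 7.02 on KD and 15.1, 17.4, 12.3 and 33.5 on ND (difference -1.02, SE 0.25, adjusted p = 0.0144). ND tumor 4 was the highest sample for both subunits, and the Pfkl call was lost after length and GC adjustment. The liver glucose transporter Slc2a2 rose by 1.17 (SE 0.30, adjusted p = 0.0163) with overlapping groups. Pklr, the liver pyruvate kinase, differed by 0.94 (SE 0.47, adjusted p = 0.172), with groups that did not overlap. Pck1, the control step of glucose production, was at 282, 492, 828 and 1021 on KD and 355, 483, 364 and 341 on ND, with overlapping groups (adjusted p = 0.223). Without KD tumor 4 the glycolysis list had 1 member that rose and 2 that fell, and without ND tumor 1 it had 1 and 3.

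Of 16 gluconeogenesis genes 6 rose and none fell, with a median of 0.33 that turned to -0.02 under a common sum, and those that rose included shuttle and transport genes. Mpc2, a subunit of the mitochondrial pyruvate carrier, was at 31.3, 37.6, 51.3 and 42.3 on KD and 10.2, 16.7, 8.69 and 15.9 on ND (difference 1.61, SE 0.36, adjusted p = 0.00873). Gpt2, the mitochondrial alanine transaminase, was at 225, 253, 289 and 257 on KD and 134, 119.5, 159 and 130.0 on ND (difference 0.91, SE 0.18, adjusted p = 0.00444). In the tricarboxylic acid cycle, the mitochondrial cycle that burns acetyl-CoA, 11 of 25 members rose, none fell and the median was 0.63. Cs, the citrate synthase, was at 27.1, 37, 32.8 and 30.5 on KD and 13.3, 20.1, 15.4 and 16.1 on ND. It differed by 0.94 (SE 0.19, adjusted p = 0.00521), without overlap. Sdhd, a membrane subunit of succinate dehydrogenase, rose by 0.98 (SE 0.20, adjusted p = 0.0057), and Dlat, the acetyltransferase of the pyruvate dehydrogenase complex, by 1.07 (SE 0.23, adjusted p = 0.00764). Without KD tumor 3 the cycle list had 3 members that rose, without KD tumor 4 or ND tumor 1 it had 5, and without ND tumor 3 it had 7. For gluconeogenesis the counts were 2 without KD tumor 3 and 3 without KD tumor 4.

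Of 74 tested respiratory chain genes 30 rose and none fell, with a median of 1.01, and the rescaled differences of all 74 were positive. Ndufb8, of complex I, was at 14.9, 15.4, 22.2 and 21 on KD and 7.09, 8.17, 7.94 and 8.08 on ND. Its difference was 1.12 (SE 0.16, adjusted p = 0.000833), without overlap. Uqcrc2, of complex III, was at 32, 38.3, 74.5 and 77.6 on KD and 12.2, 16, 19.8 and 22.8 on ND, with KD tumors 3 and 4 highest (difference 1.53, SE 0.34, adjusted p = 0.00964). Cox6c of complex IV rose by 1.30 (SE 0.30, adjusted p = 0.011) and Atp5g3 of ATP synthase by 1.52 (SE 0.34, adjusted p = 0.0087). The count of 30 fell to 7, 8, 13 and 10 without KD tumor 3, KD tumor 4, ND tumor 1 and ND tumor 3. Without KD tumor 2 it was 20. It was 19 with a replicate block or a common sum, 12 with no filter, 52 when only the tumor samples were fitted, 0 without rescaling, and 1 without KD tumor 3 and ND tumor 3. All 85 tested cytosolic ribosomal protein genes were likewise positive, with a median of 0.72, yet 6 rose, a share of 7.06% beside 7.15% over all genes. That count was 2 without KD tumor 3 or ND tumor 1, 3 without KD tumor 4 or ND tumor 3, and 40 when only the tumor samples were fitted. Among 77 mitochondrial ribosomal proteins 11 rose and 1 fell, with a median of 0.48, and the number that rose was 2 without KD tumor 3 or KD tumor 4, 3 without ND tumor 1 and 6 without ND tumor 3.

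Many genes of the last 3 lists have short transcripts, and transcript length moved with diet in these libraries. With genes ordered by exon length into 10 equal bins, in the shortest bin (48 to 1311 bases) the median difference was 0.34, and in the longest bin (9300 to 41155 bases) it was -0.10. KD tumor 3 and ND tumor 3 lay at the ends of this trend, with median deviations of 0.41 and -0.46 in the shortest bin. After length and GC content trends were removed in each sample, 26 respiratory chain genes rose with a median of 0.79, and 7 cytosolic ribosomal genes rose with a median of 0.57. The median exon length was 1587 bases in the respiratory chain list and 4378.5 bases in the mitochondrial fat oxidation list, in which 16 members rose after the adjustment.

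**Figure D3:**
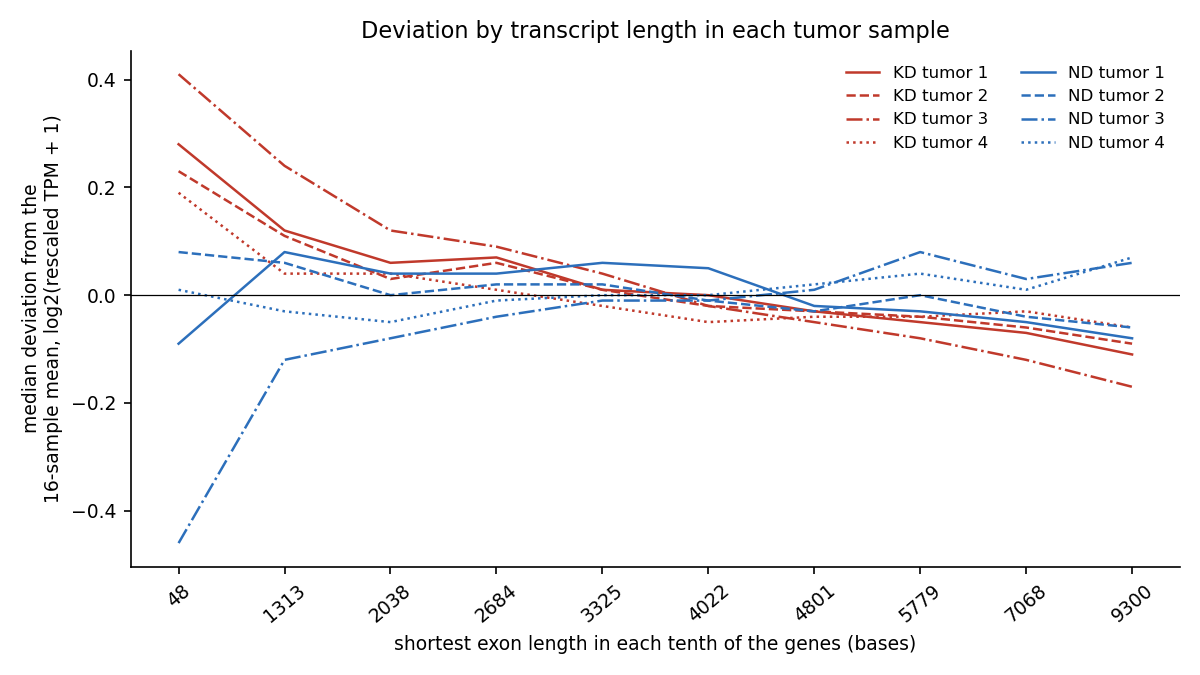
Lines give, for each of the 8 tumors, the median deviation from the 16-sample mean on the log2(rescaled TPM + 1) scale over 10 equal bins of the genes ordered by exon length, labelled by the shortest length in bases. KD tumor 3 starts at 0.41 and ND tumor 3 at -0.46 in the shortest bin.

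**Figure D4:**
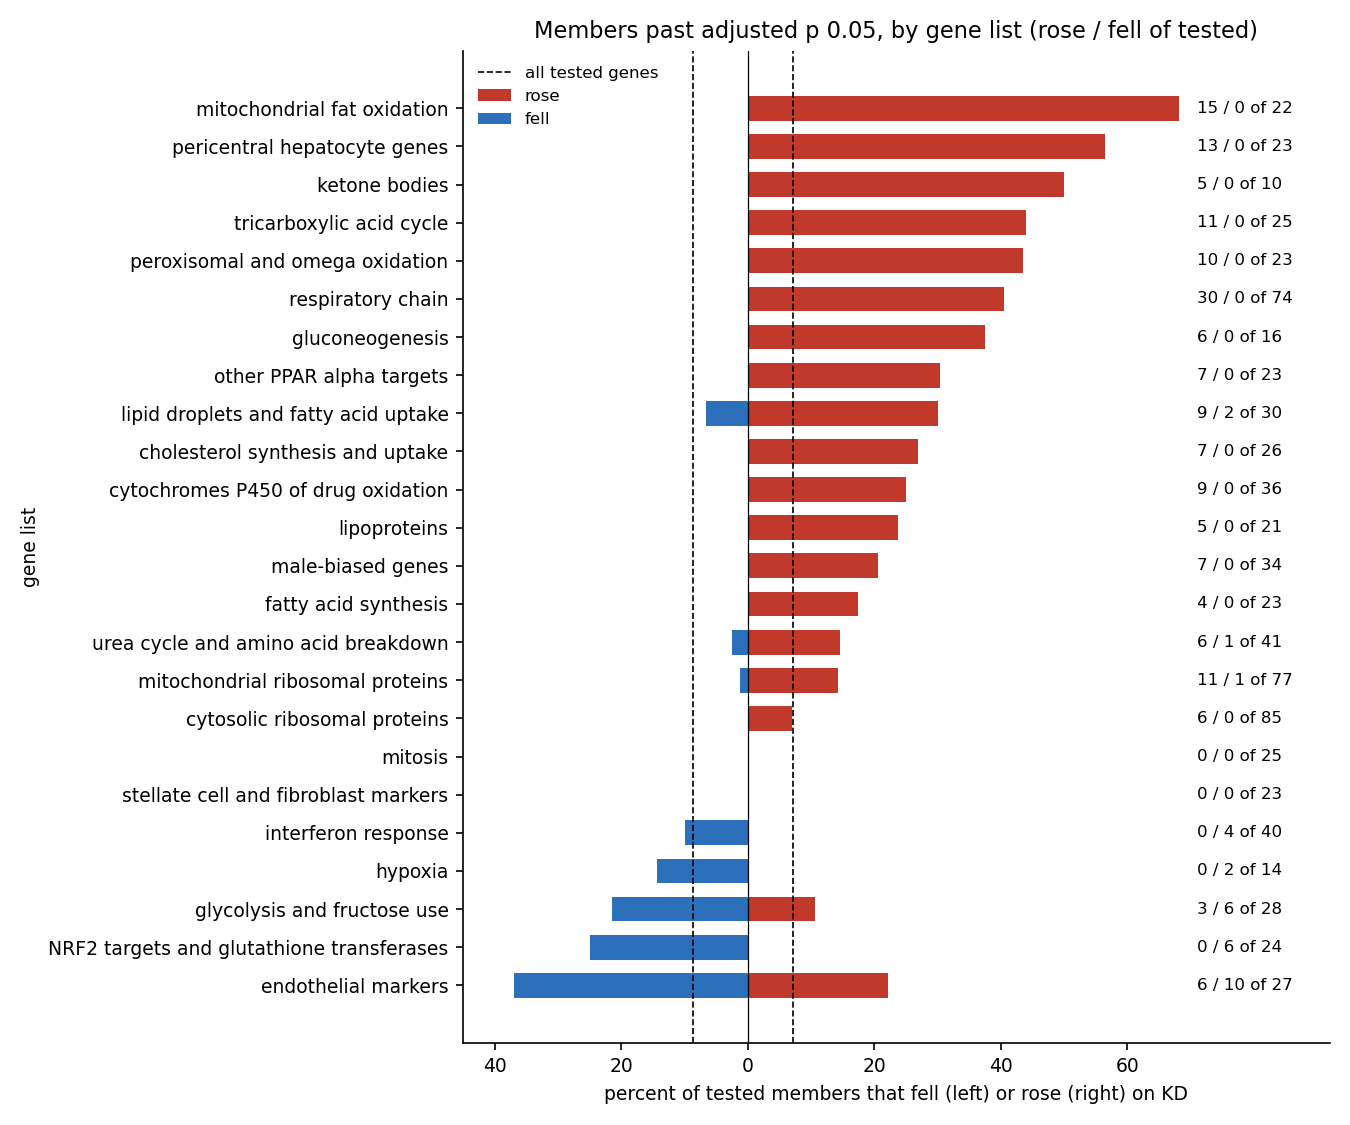
Bars give the percent of tested members of each gene list that rose (right) or fell (left) on KD in tumors, with the numbers beside them, and dashed lines give 7.15% and 8.67% over all tested genes. Mitochondrial fat oxidation has the longest bar to the right, with 15 of 22, and the endothelial markers the longest to the left, with 10 of 27.

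The largest falls on KD among the genes named by rule were in enzymes that detoxify electrophiles, many of them targets of the stress-activated transcription factor NRF2 or glutathione S-transferases (GSTs), which couple glutathione to reactive compounds. Of 24 tested members 6 fell and none rose, with a median of -0.24, so that 25% of this list fell beside 8.67% of all tested genes. The promoters of the members with the largest falls are shown to set them beside their values, with the core of the antioxidant response element (TGAC, any 3 bases, then GC) sought in the same way on both strands. It occurred in 3338 of all 32851 promoters (10.2%) and in 5 of the 19 list genes that had a promoter in the table, namely G6pdx, Gclm, Gsta3, Txnrd1 and Ugdh. None of these 5 was among the 6 that fell. For Gstm3 the bases -229 to -110 (chr3:107969284-107969403, minus strand) and for Cbr3 the bases -124 to -5 (chr16:93683095-93683214, plus strand) read as follows, with no match to mark.
Gstm3: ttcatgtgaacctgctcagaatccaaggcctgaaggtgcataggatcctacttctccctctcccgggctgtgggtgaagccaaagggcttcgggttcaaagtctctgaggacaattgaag
Cbr3: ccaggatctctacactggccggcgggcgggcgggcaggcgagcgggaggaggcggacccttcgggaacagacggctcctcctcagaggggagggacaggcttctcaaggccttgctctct
The absence of these letters says only that they are not in this window.

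Gstm3 (chr3:107963696-107969283) was at 13, 5.95, 4.84 and 7.54 in the KD tumors and 138, 288, 159.5 and 60.5 in the ND tumors. The groups were far apart, and the difference of -4.08 (SE 0.61, adjusted p = 0.00123) was the largest fall among the genes the naming rule allowed. Cbr3 (chr16:93683215-93690990), a carbonyl reductase, was at 2.25, 2.49, 1.55 and 0.772 on KD and 37, 55.2, 43.3 and 14.1 on ND, a difference of -3.69 (SE 0.39, adjusted p = 0.000283). Gstm1 was at 620.1, 404, 411 and 491 on KD and 2252, 5394, 3568 and 1778 on ND (difference -2.64, SE 0.47, adjusted p = 0.00298). ND tumor 2 was the highest sample for all 3 genes. Nqo1, the quinone reductase often used as a readout of NRF2, was at 2.51, 3.46, 5.67 and 1.62 on KD and 7.94, 23.6, 21.2 and 5.95 on ND, without overlap. Its difference was -1.74 (SE 0.46, adjusted p = 0.0196), and the call was lost without KD tumor 4, ND tumor 2 or ND tumor 3. The other members that fell were Srxn1, which repairs oxidized peroxiredoxins (difference -1.15, SE 0.35, adjusted p = 0.0366), and Gstm2 (difference -1.31, SE 0.36, adjusted p = 0.0236). Outside the list, Gstp2 was at 50.3, 31.1, 18.1 and 7.49 on KD and 143, 357, 310.5 and 196 on ND, a difference of -3.38 (SE 0.54, adjusted p = 0.00177). Its neighbor Gstp1 was at 293, 305, 434 and 208 on KD and 291, 348, 353 and 204 on ND (difference 0.04, adjusted p = 0.966). These neighbors, like the Gstm genes, are close copies, and reads could be split between them, so the values of a single copy are uncertain. Without KD tumor 4 the list had 3 members that fell, and without ND tumor 2 it had 3 that fell and 1 that rose.

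**Figure D5:**
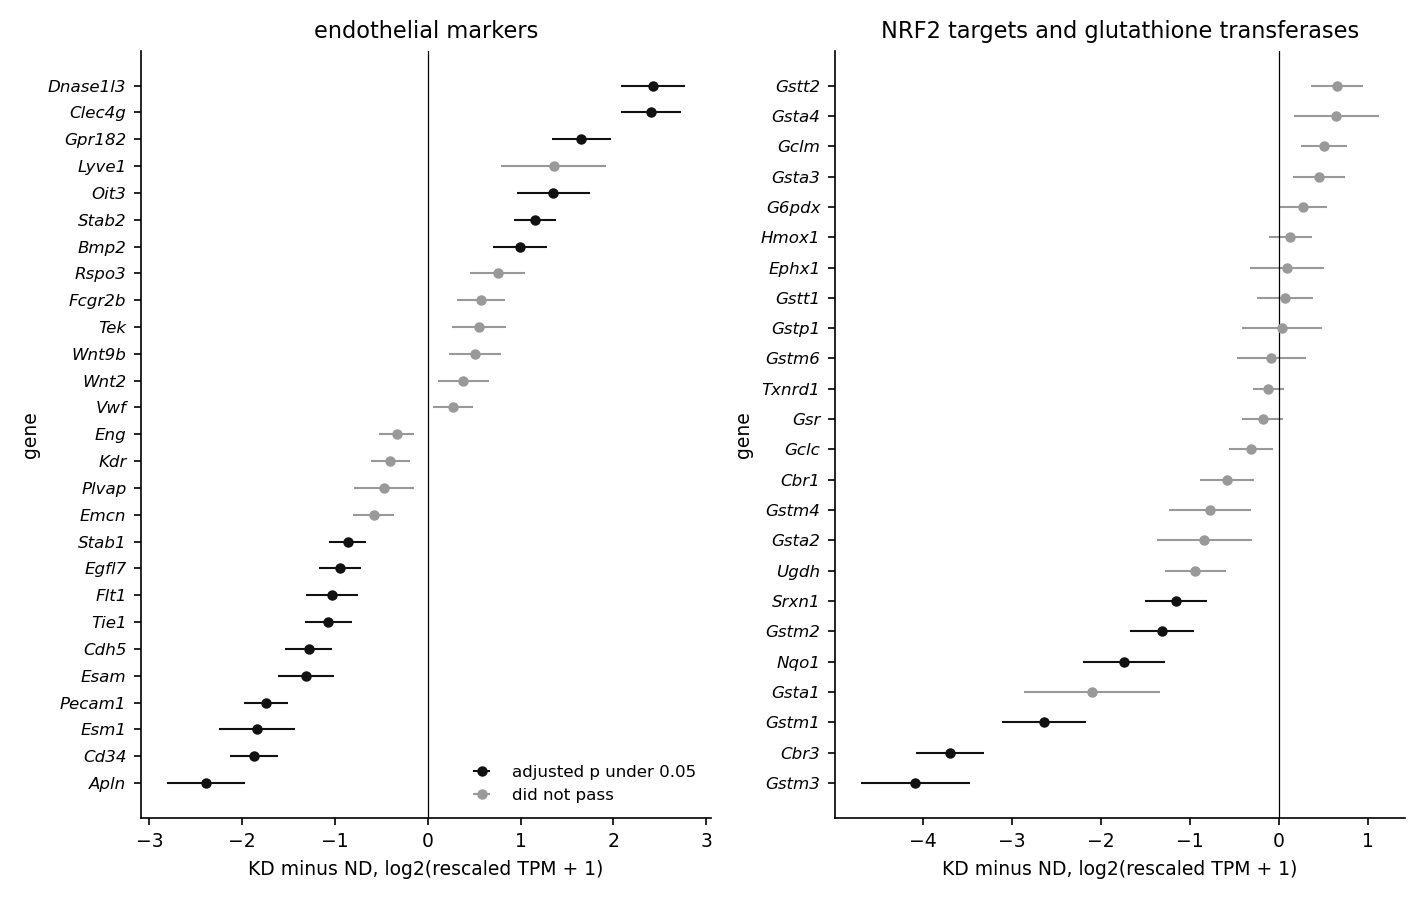
Points give the KD minus ND difference in tumors for each tested endothelial marker and each gene of the NRF2 and glutathione transferase list, on the log2(rescaled TPM + 1) scale, and lines give 1 SE to each side. Endothelial markers split into 6 that rose, led by Dnase1l3 and Clec4g, and 10 that fell, led by Apln, while in the other list Gstm3 and Cbr3 lie farthest to the left.

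Genes that mark hepatocytes near the central vein, a zone set by Wnt signaling, rose in KD tumors. Of 23 pericentral genes 13 rose and none fell, with a median of 0.94. Of 20 periportal genes 1 rose and 1 fell, shares of 5% each beside 7.15% and 8.67% over all tested genes. Cyp2e1 (chr7:140763739-140774987), a cytochrome P450 that also oxidizes acetone and ethanol, was at 298, 241, 415 and 1342 on KD and 24.3, 64.8, 92.1 and 39.3 on ND. KD tumor 4 was far above the rest, and even the lowest KD tumor exceeded every ND tumor (difference 3.17, SE 0.51, adjusted p = 0.00171). Glul, the glutamine synthetase that marks the innermost pericentral hepatocytes, was at 90.7, 100.4, 95.9 and 134 on KD and 32.9, 34.7, 32.9 and 26.2 on ND. The KD and ND values of Glul were tight and apart (difference 1.69, SE 0.25, adjusted p = 0.00123). Rgn, regucalcin, was at 157, 143, 121 and 318 on KD and 12.3, 42.1, 34.3 and 23.8 on ND, a difference of 2.70 (SE 0.42, adjusted p = 0.00162). Oat, the ornithine aminotransferase, rose by 2.50 (SE 0.43, adjusted p = 0.00254), and Gulo, which makes vitamin C, rose by 1.47 (SE 0.21, adjusted p = 0.000832). The summed level of the list was 1207, 1149, 1029 and 2602 in the KD tumors and 416.3, 591.4, 460.1 and 309.3 in the ND tumors. In nontumor liver it ranged from 3800 to 6910 on KD and from 3960 to 7410 on ND, above every tumor. The median kept its sign under every alternative, and between 9 and 13 members rose when each tumor was left out.

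Other hepatocyte enzymes rose as well. Of 36 cytochromes P450 of drug oxidation 9 rose and none fell, with a median of 0.31 that turned to -0.11 under a common sum. Cyp2c38 was at 4.69, 3.26, 3.97 and 17.8 on KD and 0.296, 0.827, 0 and 0.237 on ND (difference 2.40, SE 0.42, adjusted p = 0.00254). Without KD tumor 4 or ND tumor 4 the P450 list had 5 members that rose. Of 34 genes that are higher in male liver 7 rose and none fell, with a median of 1.06, and of 20 that are higher in female liver 5 rose and 1 fell, with a median of 0.43. The male list consists largely of major urinary proteins, which are near copies of each other, so values of single members are uncertain. Mup11 was at 75.8, 34.3, 35.2 and 38.7 on KD and 7.82, 7.41, 7.75 and 12.7 on ND (difference 2.20, SE 0.36, adjusted p = 0.0018). The female-biased steroid hydroxylase Cyp17a1 fell by 1.30 (SE 0.17, adjusted p = 0.000703), from 46.1 ± 8.33 to 17.9 ± 0.695 (SD, n = 4), and its groups did not overlap. The count of male-biased genes was 4 without ND tumor 3 and 13 without ND nontumor 4, and that of female-biased genes that rose was 3 without KD tumor 3 or KD tumor 4.

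Several single genes with large differences stood outside these pathways. Igfbp2, a binding protein for insulin-like growth factors, was at 223, 167, 504 and 446 on KD and 31.4, 78.4, 20 and 28 on ND (difference 3.10, SE 0.46, adjusted p = 0.00123). Car3, a carbonic anhydrase of liver, fat and muscle, was at 167, 198, 272 and 844 on KD and 26.6, 74.6, 20.4 and 90.3 on ND, with KD tumor 4 highest (difference 2.72, SE 0.53, adjusted p = 0.00478). The small nucleolar RNA Snord49a, whose gene is 72 bases long, was at 1.87, 14.4, 14.4 and 10.8 on KD and listed at 0 in all ND tumors, so no fold is given. These Snord49a values rest on 1, 6, 8 and 4 recovered reads in KD tumors 1 to 4 and 0 in each ND tumor. Polyadenylated RNA was sequenced, and which transcript these reads came from was not tested. Reads were fewer in most ND tumors, so the absence there is uncertain. The Snord49a call (adjusted p = 0.016) was lost without KD tumor 3. Sox9, a factor of biliary and progenitor cells that many liver tumors express, fell. It was at 6.05, 7.97, 6.98 and 5.39 on KD and 33.5, 19.1, 37.4 and 27.3 on ND (difference -1.97, SE 0.22, adjusted p = 0.000339). Of 10 cholangiocyte markers, the bile duct genes among which Sox9 counts, 1 rose and 1 fell, so the fall was not shared by the list. These shares of 10% each stand beside 7.15% and 8.67% over all tested genes.

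Endothelial markers moved in both directions. Of 27 tested markers 6 rose (22.2%) and 10 fell (37%), with a median of -0.34, and leaving out single tumors gave 4 to 7 that rose and 9 to 11 that fell. Those that rose were Clec4g, Dnase1l3, Gpr182, Stab2, Oit3 and Bmp2, which are known from the sinusoids, the leaky capillaries of normal liver. Those that fell were Pecam1, Cdh5, Flt1, Tie1, Cd34, Esam, Egfl7, Stab1, Apln and Esm1, of which Pecam1 and Cdh5 are junction proteins of endothelium in general, Stab1 is itself sinusoidal, and Cd34, Apln and Esm1 are known from growing or continuous capillaries. Clec4g, a lectin of sinusoidal endothelium, was at 24.4, 15.7, 13.6 and 13.4 on KD and 3.11, 1.77, 3.28 and 1.32 on ND, far apart (difference 2.40, SE 0.32, adjusted p = 0.000761). Dnase1l3 was at 11.7, 7.27, 7.46 and 5.38 on KD and 0, 0.422, 0.942 and 1.45 on ND (difference 2.43, SE 0.34, adjusted p = 0.00088). In nontumor liver Clec4g averaged 30.7 on KD and 25.5 on ND.

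Pecam1 (chr11:106654217-106750628) was at 8.21, 8.35, 5.09 and 3.7 on KD and 35.9, 17.1, 21.2 and 19.9 on ND, a difference of -1.74 (SE 0.24, adjusted p = 0.000812). Cd34 was at 1.98, 2, 1.24 and 0.957 on KD and 12.9, 7.05, 4.98 and 9.38 on ND (difference -1.87, SE 0.26, adjusted p = 0.000812). Apln, the peptide ligand apelin, was at 0.257, 0.495, 0.904 and 0.0615 on KD and 3.78, 4.15, 3.65 and 24 on ND (difference -2.39, SE 0.42, adjusted p = 0.00272). ND tumor 4 stood out for Apln, and the groups were apart for all 3 genes. The summed endothelial list was 237.6 to 399 in KD tumors and 369.9 to 554.6 in ND tumors, so the sums overlapped. Other genes with large falls included Cav1, the caveolin of endothelium and stroma, at 1.76, 3.37, 1.65 and 1.29 on KD and 31, 10.8, 6.26 and 26.6 on ND (difference -2.50, SE 0.39, adjusted p = 0.00143). The Notch ligand Jag2 was at 0.619, 0.971, 1.25 and 0.528 on KD and 16.5, 8.29, 3.87 and 13.8 on ND (difference -2.52, SE 0.31, adjusted p = 0.000565). Cav1 and Jag2 were highest in ND tumors 1 and 4.

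Of 14 genes induced by low oxygen none rose and 2 fell, with a median of -0.67. The share that fell was 14.3%, beside 8.67% over all tested genes. Ndrg1 was at 2.18, 2.6, 1.67 and 0.999 on KD and 7.25, 5.64, 5.34 and 20.6 on ND (difference -1.74, SE 0.35, adjusted p = 0.0057). P4ha1, a collagen hydroxylase subunit, was at 11.4, 9.69, 8.8 and 6.22 on KD and 19.3, 21.5, 17.9 and 29.6 on ND (difference -1.20, SE 0.22, adjusted p = 0.00352). ND tumor 4 was the highest sample for both, and the summed list was 552.5 in ND tumor 4 against 169.6 to 228.1 in the other ND tumors and 146.3 to 175.9 in KD tumors. Without ND tumor 3 the list had 4 members that fell.

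Immune markers gave few calls. Of 19 tested markers of T and NK cells none rose and 2 fell, Lck and Lag3, a share of 10.5% beside 8.67% over all tested genes. Between 0 and 7 fell when single tumors were left out. Lck, the T cell kinase, was at 2.8, 3.31, 2.92 and 0.661 on KD and 8.27, 2.77, 15.5 and 10.3 on ND, with overlapping groups (difference -1.49, SE 0.41, adjusted p = 0.0231). The count was 7 without ND tumor 2 and 0 without KD tumor 4, ND tumor 1, ND tumor 3 or ND tumor 4. Summed T and NK markers ranged from 47.29 to 138 on KD and from 71.35 to 223.4 on ND. Of 14 markers of Kupffer cells, the resident macrophages of liver, Cd5l and Clec4f rose, a share of 14.3% beside 7.15% over all tested genes. The summed Kupffer list overlapped, at 174.1 to 355.3 on KD and 197.1 to 323.7 on ND. Cd5l was at 21.6, 14.6, 21 and 12.6 on KD and 1.25, 7.09, 11.4 and 2.94 on ND (difference 1.72, SE 0.40, adjusted p = 0.011). Clec4f overlapped between the groups and lost its call without KD tumor 1, KD tumor 3, KD tumor 4, ND tumor 1, ND tumor 2 or ND tumor 4. Of 40 interferon response genes none rose and 4 fell, a share of 10% beside 8.67% over all genes. The 4 were led by Stat2 (difference -0.87, SE 0.20, adjusted p = 0.0121), and the count was 1 without KD tumor 2, 3 or 4 or ND tumor 1 and 2 without ND tumor 3. No member of the 16 tested MHC class II and dendritic cell markers or the 23 stellate cell and fibroblast markers passed, and 1 of 25 monocyte and macrophage markers did, a share of 4%. It was S100a4, whose groups overlapped and whose call was lost without KD tumor 1, 2 or 3 or ND tumor 1, 2 or 3 and after length and GC adjustment. Of 11 B and plasma cell markers Ebf1 fell, by 1.30 (SE 0.25, adjusted p = 0.00412), a share of 9.09% beside 8.67% over all genes. The median of this list was positive, at 0.27, so the fall was not shared by the list. The summed list overlapped, at 81.08 to 831.9 on KD and 50.58 to 379.8 on ND. Of 9 red blood cell genes Car1 rose, by 1.84 (SE 0.38, adjusted p = 0.00592), a share of 11.1%. The summed red blood cell list was 479.6 to 3298 on KD and 270.5 to 1384 on ND, so this sum varied widely within both groups.

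The summed level of 31 secreted hepatocyte proteins was 136500 to 177900 in KD tumors and 76030 to 116600 in ND tumors, without overlap. The summed levels of the fat oxidation, ketone and pericentral lists also did not overlap between the groups, while those of the bile acid list did. Sums apart were not particular to these lists. The proteasome sum was 1997 to 2498 on KD and 1354 to 1734 on ND, and the lysosome and autophagy sum 1644 to 2123 and 1244 to 1578. Listed genes together also held a larger share of the TPM total in KD tumors. In nontumor liver the sum of the secreted proteins was 33700 to 98500 on KD and 54200 to 98400 on ND. Of the list's members 3 rose (9.68%) and 1 fell (3.23%), beside 7.15% and 8.67% over all tested genes. Alb did not pass (difference 1.08, SE 0.55, adjusted p = 0.185). The part of hepatocyte content in the other lists was not tested.

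Genes of the model and of cell division gave little contrast. Mouse Nras was at 9.34, 11.4, 8.08 and 8.32 on KD and 9.97, 8.53, 8.97 and 10.3 on ND (difference -0.03, SE 0.15, adjusted p = 0.91). Mouse Myc was at 4.95, 10.3, 3.38 and 3 on KD and 9.23, 6.55, 13.7 and 10.3 on ND, with overlapping groups (difference -0.86, SE 0.40, adjusted p = 0.142). The plasmids carry human genes, and how reads from them were counted is not given, so these values do not check the transgenes. Of 25 mitosis genes none passed. The proliferation marker Mki67 was at 16.7, 5.62, 6.4 and 9.61 on KD and 19.6, 13.1, 10.4 and 7.87 on ND (difference -0.42, SE 0.39, adjusted p = 0.478). Of 24 DNA replication genes Pcna, the sliding clamp, rose, a share of 4.17% beside 7.15% over all tested genes. Pcna was at 18.3, 22.4, 25.9 and 19.4 on KD and 9.03, 6.84, 7.49 and 12.8 on ND, without overlap (difference 1.19, SE 0.23, adjusted p = 0.0041). Of 21 genes downstream of RAS and ERK signaling 1 rose and 1 fell, shares of 4.76% each beside 7.15% and 8.67% over all tested genes. Ccnd1, the cyclin of G1 phase, rose by 0.83 (SE 0.26, adjusted p = 0.0428) and Spred3, an inhibitor of the pathway, fell by 0.87 (SE 0.24, adjusted p = 0.0264). The Ccnd1 call was lost without KD tumor 2, 3 or 4 or ND tumor 1, 2 or 4, and that of Spred3 without KD tumor 3 or 4 or ND tumor 1 or 4. Of 15 p53 targets none passed, and Afp, the fetal albumin relative, ranged from 5.35 to 409.6 on KD and from 11.3 to 44.8 on ND (adjusted p = 0.33).

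The diet contrast was also made in nontumor liver, where 7 of the 13432 genes (0.0521%) passed and 1191 had an unadjusted limma p under 0.05, against 4409 in tumors. These nontumor counts, and the ND nontumor means and ranges given here, include ND nontumor 4 (factor 0.128). Its listed genes held 7.4% of the TPM total, against 66.8% to 88.4% in the other nontumor samples. Nontumor counts without this sample are not given here. The lower counts do not by themselves show a smaller effect in nontumor liver. The difference between the tissues was tested gene by gene. It passed for 82 genes (0.61%), of which 19 are among the genes named here. That test treated the 16 samples as independent although they came from 8 mice, since the labels do not say which samples share a mouse. Its p-values therefore leave out any pairing within mice. For most fat oxidation and ketone genes the test did not pass. For Cpt1a nontumor means were 71.4 on KD and 63.5 on ND, and the tissue difference was 1.24 (SE 0.30, adjusted p = 0.0697), which passed without ND nontumor 4. Bdh1 had a tissue difference of 1.02 (SE 0.44, adjusted p = 0.243) and Fabp1 one of 2.33 (SE 0.83, adjusted p = 0.17). Cyp7a1 rose in nontumor liver too, from 3.23 to 18.7, by 2.23 (adjusted p = 0.000579), and the tissue difference of -0.69 did not pass (adjusted p = 0.309).

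For several pericentral genes the tissue difference passed. Glul averaged 249 and 256 in nontumor liver on KD and ND, and its tissue difference was 1.72 (SE 0.36, adjusted p = 0.0412). For Rgn, Oat and Gulo the tissue differences were 3.06, 3.12 and 1.85 (adjusted p = 0.0332, 0.0332 and 0.0175), while for Cyp2e1 it was 2.68 and did not pass (adjusted p = 0.087). Cbr3 averaged 0.88 on KD and 1.27 on ND in nontumor liver, where its tumor level on ND was 37.4 ± 17.3 (SD, n = 4), and the tissue difference was -3.50 (SE 0.55, adjusted p = 0.0175). Gstm3 averaged 9.16 on KD and 60.7 on ND in nontumor liver and its tissue difference of -1.19 did not pass (adjusted p = 0.48). Cd34 averaged 0.564 and 0.515 in nontumor liver on KD and ND, with a tissue difference of -1.90 (SE 0.37, adjusted p = 0.0299), and for Clec4g it was 2.15 (SE 0.46, adjusted p = 0.0447). Without rescaling, Cbr3, Jag2, Sema7a and Mroh3 kept a tissue difference that passed and the other 15 of the 19 did not. Without ND nontumor 4 all 19 passed.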

How the data were processed

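RNA-seq of polyadenylated RNA gave 16 samples in 4 groups of 4. The authors deposited TPM values for each gene and sample. The submitters' processing notes name FastQC, HISAT2, SAMtools, featureCounts and the mm10 build, while versions, annotation, strand setting, the step to TPM and how the listed genes were selected were not given in the sources used here. Tumor columns were matched to samples by their titles. No per-sample column was left unused.

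TPM was divided by median-of-ratios factors from the 11798 genes above 0 in all 16 samples. The 13432 genes at 1 TPM or more in 4 or more samples were fitted on log2(rescaled TPM + 1) with limma 3.58.1 (R 4.3.3), with a variance trend, equal weights and no replicate block, all 16 samples in 1 fit, and Benjamini-Hochberg adjustment at 0.05. The fit was tested on simulated data. Python 3.11.15, pandas 2.3.3, numpy 2.4.6 and matplotlib 3.10.9 did the rest. Depth came from whole reads recovered as TPM times exon length: 98.04% to 98.15% of the nonzero tumor values lay within 0.01 of a whole number. Exon lengths and positions came from GENCODE M21, in which 19991 symbols had 1 match.

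Named genes were the 15 largest rises and 15 largest falls among called genes whose groups do not overlap and whose higher mean is at least 5, without predicted, clone or pseudogene names. To these were added up to 4 called members of each gene list and a set of model and metabolic genes. Other called list members are named where a whole set is listed, chosen after their values were seen. Some genes that met the rule are counted in their lists but not reported here. The comparison, the members and the lists were chosen with earlier results of these data known. No set test was run, and lists are described by counts and medians. KD and ND tumors of equal number had correlations of 0.14, -0.20, -0.11 and 0.06 for numbers 1 to 4. These tumors come from different diet groups, so the values cannot tell which samples share a mouse. Between tumor and nontumor samples of the same diet and number the correlations were -0.112 to 0.164. No 2 tumors of a group were copies of each other. Alternatives were other scales, a pseudocount of 0.1, other filters, tumor samples only, replicate blocks, no variance trend, each tumor and ND nontumor 4 left out, and a log2 difference of at least 1. Length and GC adjustment, voom on the recovered reads, and leaving out KD tumor 3 with ND tumor 3 were chosen after seeing the data.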

Additional observations from a re-analysis of the deposited data

Results flagged for a closer look

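The spread within each group of 4 tumors was checked for the named genes by dividing the gap of the highest or lowest sample by the range of the group on the log2 scale, and the ratio was compared with Dixon's 95% critical value for 4 samples. Of 360 groups checked 18 (5%) exceeded it, and chance gives about 1 in 20. ND tumor 4 was the highest sample for Apln (ratio 0.94), Cyp7a1 (1.0), Pfkp (0.881), Mup11 (0.9) and S100a4 (1.0), and the lowest for Mrpl18 (0.958) and S100a8 (0.858). Cyp7a1 and S100a4 were listed at 0 in the other ND tumors. In ND tumor 1, Rrs1 (0.892) and Gulo (0.869) were low. ND tumor 2 was high for Psmb2 (0.861) and F9 (0.869). Among KD tumors, KD tumor 1 was low for Snord49a (0.838) and high for Mup11 (0.849) and Alb (0.903). KD tumor 3 was high for Ccnd1 (0.904) and Rxra (0.886). KD tumor 4 was high for Nr5a2 (0.835) and low for Lck (0.868).

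The diet difference in tumors minus that in nontumor liver passed the limma interaction test, at an adjusted p under 0.05, for 19 named genes. It was positive for Car3 (3.64), Scd1 (3.46), Oat (3.12), Rgn (3.06), Mup11 (2.96), Cd5l (2.77), Clec4g (2.15), Gulo (1.85), Glul (1.72) and Hyou1 (1.40). It was negative for Cbr3 (-3.50), Sema7a (-2.80), Jag2 (-2.41), Mroh3 (-2.25), Map3k6 (-2.24), Glt1d1 (-2.01), Cd34 (-1.90), Cyp17a1 (-1.65) and Uroc1 (-1.48).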

How the results depend on the processing

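The count of 2126 called genes (961 higher, 1165 lower) changed with the setting. Without rescaling it was 113 (39 higher, 74 lower). The difference of Cpt1a went from 1.42 to 1.38, that of Fabp1 from 2.50 to 2.46 and that of Gstm3 from -4.08 to -4.12. Their limma adjusted p without rescaling was 0.554, 0.0957 and 3.68e-05. ND nontumor 4 (factor 0.128) stayed unscaled in that fit, and its part in the lower count was not tested. With a common sum the count of called genes was 2886, with 274 higher and 2612 lower. Leaving out single tumors gave 1060 to 1992 called, 368 to 908 higher and 682 to 1108 lower. Leaving out KD tumor 3 and ND tumor 3 together gave 694 (201 and 493), from fewer samples. A log2 difference of at least 1 kept 861 (418 and 443). With the replicate number as a replicate block it was 1792 (780 and 1012), and the numbers are not known to pair the samples. With only tumor samples fitted it was 2098, with voom 2445, and with length and GC adjusted 1920. Leaving out ND nontumor 4 gave 2165 (980 and 1185). No gene called both here and under an alternative changed direction. Of 159 called named genes 26 passed under all 22 alternatives, 130 were lost without rescaling, 40 with a common sum and 87 without KD tumor 3 and ND tumor 3. Uncalled genes changed sign. With a common sum Gpc3 was -0.41, Ppara -0.14, Fgf21 -0.14, Srebf1 -0.24 and Fasn -0.29. Length and GC adjustment gave Gpc3 -0.14, and without KD tumor 3 and ND tumor 3 Nras was 0.004 and Fasn -0.077. Leaving out single tumors gave Gpc3 -0.36 to 0.44, Oxct1 -0.25 to 0.04, Nras -0.125 to 0.023 and Fasn -0.10 to 0.37. At 6.759 to 13.914 (in units of 1e6) reads per tumor, levels near 1 TPM rest on few reads.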

Other observations

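In the list of urea cycle and amino acid breakdown 6 of 41 members rose and 1 fell, with a median of 0.33 that turned to -0.09 under a common sum. Cth, which makes cysteine from cystathionine, was at 43.5, 33.7, 63.6 and 94.3 on KD and 13.1, 27.1, 19.6 and 17.7 on ND (difference 1.49, SE 0.29, adjusted p = 0.00486). Uroc1, an enzyme of histidine breakdown, was the member that fell, at 281, 187, 289.7 and 342 on KD and 549, 658, 483 and 427 on ND (difference -0.96, SE 0.22, adjusted p = 0.0116). Without KD tumor 3 the list had 2 members that rose, and without KD tumor 4 or ND tumor 1 it had 3. Among 25 genes of the ATF4 stress response 4 rose and 2 fell, shares of 16% and 8% beside 7.15% and 8.67% over all tested genes. Atf5, a transcription factor of this response, was at 653, 724, 796 and 634 on KD and 259, 372, 292 and 211 on ND (difference 1.33, SE 0.30, adjusted p = 0.00897). Ddit3, the death-linked factor also called CHOP, went the other way, at 71, 46, 20.9 and 23.1 on KD and 80.4, 67.8, 139.5 and 74.4 on ND, with KD tumor 1 above ND tumor 2 (difference -1.26, SE 0.32, adjusted p = 0.0165). The call of Ddit3 was lost without KD tumor 3 or KD tumor 4.

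Of 18 circadian clock genes 2 rose and 1 fell, with a median of 0.31 that turned to -0.04 under a common sum. These shares of 11.1% and 5.56% stand beside 7.15% and 8.67% over all tested genes, so the list as a whole gave little contrast. Dbp, an output gene of the clock, was at 29.8, 19.8, 69.2 and 57.1 on KD and 5.33, 11.4, 18.9 and 4.45 on ND (difference 2.07, SE 0.54, adjusted p = 0.0192). Arntl, which drives the clock and peaks in another phase than Dbp, was at 2.65, 3.87, 1.24 and 1.21 on KD and 6.55, 5.31, 2.65 and 7.55 on ND, with overlapping groups (difference -1.02, SE 0.27, adjusted p = 0.0213). In nontumor liver Dbp averaged 54.7 on KD and 9.69 on ND (difference 2.25, adjusted p = 0.138). The Dbp call was lost under the common sum. No clock gene was called without KD tumor 3, KD tumor 4 or ND tumor 1, and the time of day of sampling was not given in the sources used here. Of 25 endoplasmic reticulum chaperones Hyou1 and Dnajb9 rose, a share of 8% beside 7.15% over all tested genes, and the list's median of 0.43 turned to -0.03 under a common sum. Hyou1, a chaperone of the secretory pathway, was at 27.9, 24.6, 33.6 and 32.6 on KD and 11.7, 15.9, 14.8 and 14.2 on ND (difference 1.02, SE 0.20, adjusted p = 0.0045).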
